A study of Mus musculus with 4 samples.

Results

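A group of 10 genes of blood vessel signalling were followed in mouse bone marrow progenitors with and without Fbw7: the ligands Vegfa, Vegfc and Angpt1, the receptors Flt1, Kdr, Tie1, Pdgfrb, Met and Fgfr1, and the co-receptor Nrp1. They were selected on their role and with the log2 differences of Pdgfrb, Vegfc and Met between these arrays already known, so those values are given as a description. They are 10 of the 18194 genes that a probe set of the array names, and every probe set whose platform annotation names a member and no other gene was taken, 24 in all. RNA was measured on 4 Affymetrix arrays, 1 for each genotype, wild-type (WT) or Fbw7-deficient, of LSK and of MP cells. LSK cells are Lin-ckit+Sca1+ marrow cells, which hold the stem cells and multipotent progenitors, and MP cells are Lin-ckit+Sca1- myeloid progenitors. Marrow from 3 mice was pooled per genotype before sorting, so LSK and MP cells of a genotype come from the same animals. Mice of all groups, controls included, had received polyI:C, a double-stranded RNA that induces interferon, at 20 ug per g in 3 injections on alternate days, and marrow was taken 2 weeks after treatment. The sources used here give neither the Fbw7 allele and the way it was removed nor the age of the mice. With 1 array per group there is no spread between replicates, so differences are given without a test or an error, and 2-fold is the size at which a gene counts as higher or lower.

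The vascular endothelial growth factors VEGF-A and VEGF-C are secreted ligands of receptor tyrosine kinases on endothelium: VEGF-A binds the receptors encoded by Flt1 and Kdr, and VEGF-C is the main growth factor of lymphatic vessels. Neuropilin 1 (Nrp1) binds VEGF-A and class 3 semaphorins and acts as a co-receptor. Angiopoietin 1 (Angpt1) activates the kinase TIE2, encoded by Tek, with which TIE1 forms complexes, and PDGF receptor beta (Pdgfrb), the hepatocyte growth factor receptor MET and FGF receptor 1 are kinases of pericytes, epithelia and many mesenchymal cells. Several of these genes are also used by blood cells, since endothelium and hematopoietic stem cells share an embryonic origin, and TIE2 is carried by both.

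RefSeq promoter sequences (build GRCm38.p6) were matched for 7 of the 10 genes; Angpt1, Fgfr1 and Pdgfrb were not matched. The 250 bases before the start of the gene are shown for Vegfc, lower past 2-fold on the Fbw7-deficient LSK array, for Tie1, lower there by 1.81-fold, and for the 2 whose genotype difference had opposite signs in LSK and MP (Met and Nrp1). Capitals mark matches, on either strand, to the E-box CACGTG bound by MYC and related factors, the RBPJ core TGGGAA of Notch signalling, the AP-1 site TGANTCA of JUN and FOS, the GATA core AGATAA and the ETS core GGAAG. MYC, Notch and JUN are known substrates of Fbw7. The windows are chr8:54077282-54077531, plus strand (Vegfc), chr4:118489850-118490099, minus strand (Tie1), chr6:17463707-17463956, plus strand (Met) and chr8:128358823-128359072, plus strand (Nrp1).
Vegfc: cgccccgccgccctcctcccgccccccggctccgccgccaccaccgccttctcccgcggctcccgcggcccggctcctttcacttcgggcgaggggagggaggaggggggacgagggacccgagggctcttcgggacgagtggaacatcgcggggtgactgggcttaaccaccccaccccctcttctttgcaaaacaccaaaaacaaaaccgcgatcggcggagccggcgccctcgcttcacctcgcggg
Tie1: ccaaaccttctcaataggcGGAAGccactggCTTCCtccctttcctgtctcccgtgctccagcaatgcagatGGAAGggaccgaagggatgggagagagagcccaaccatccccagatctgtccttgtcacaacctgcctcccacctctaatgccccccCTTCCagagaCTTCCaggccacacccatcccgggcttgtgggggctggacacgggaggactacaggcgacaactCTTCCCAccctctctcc
Met: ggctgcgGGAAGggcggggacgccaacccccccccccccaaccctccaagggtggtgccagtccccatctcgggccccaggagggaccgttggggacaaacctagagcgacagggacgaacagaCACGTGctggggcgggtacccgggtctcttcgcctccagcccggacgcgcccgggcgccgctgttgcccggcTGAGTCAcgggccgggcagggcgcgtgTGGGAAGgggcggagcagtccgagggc
Nrp1: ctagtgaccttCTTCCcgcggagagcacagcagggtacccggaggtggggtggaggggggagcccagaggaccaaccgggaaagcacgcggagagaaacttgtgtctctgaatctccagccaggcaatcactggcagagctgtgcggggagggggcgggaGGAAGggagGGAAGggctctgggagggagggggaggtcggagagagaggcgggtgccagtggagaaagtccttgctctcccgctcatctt
The Vegfc window held none of the 5 motifs and had a GC content of 71.6%, against a median of 52.4% over 32851 windows of the same length. The Tie1 window held 6 ETS cores and 1 RBPJ core, the latter overlapping an ETS core, and its GC content was 60.4%. The Met window held 1 E-box, 126 bases before the start, 1 AP-1 site at 54 bases, 1 RBPJ core at 27 bases and 2 ETS cores, 1 of them overlapping the RBPJ core. The Nrp1 window held 3 ETS cores and no other motif. Windows of matched members short of 2-fold between genotypes held motifs too. The Kdr window held 1 RBPJ core and 1 ETS core, and the Flt1 window 3 ETS cores. Vegfa had 2 windows on the minus strand, chr17:46032378-46032627 and chr17:46025164-46025413. The second lies downstream of the first, so it does not precede the first start of the gene. Each held 2 RBPJ cores and 1 ETS core, and the first also held a GATA core. Over all windows, 6.02% held the E-box, 6.75% the AP-1 site, 21.6% the RBPJ core, 9.99% the GATA core and 64.1% the ETS core. A match is a description of letters only, and none of these windows was assayed in these cells.

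Values are intensities on a linear scale. The median of all values was 157, and a value under it is not shown to be above background. Of the 96 values of the members, 50 lay under this median. Of the 24 probe sets, 9 lay at or above it on all 4 arrays, 7 on some arrays and 8 on none. The closest values under it were 156.6 for a probe set of Nrp1 and 154 for Tie1. A gene was kept for comparison where its brightest probe set reached the median on at least 1 array, which 12240 genes and 9 members did; Fgfr1 did not. The intensity of 1 probe set was not compared with that of another. Array medians ran from 155 to 159. The control probe set at the 3' end over that at the 5' end is a measure of RNA quality. For Gapdh this ratio was 4.30 on the wild-type LSK array and 2.60 to 2.95 on the others. For Actb the gap was smaller, 3.53 on the wild-type LSK array and 2.67 to 2.99 on the others. Each value below that rests on the wild-type LSK array carries these gaps, and their part was not tested. Fbxw7, the gene of Fbw7, read 1355, 1103, 691 and 958 on its brighter probe set in wild-type LSK, deficient LSK, wild-type MP and deficient MP, and does not check the genotype labels. The sources used here do not say which part of the gene was removed. The sort labels were checked on markers: between the wild-type samples all 9 named stem cell markers were higher in LSK than in MP (median log2 difference 2.32) and all 9 myeloid progenitor markers were lower (median -2.53).

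**Figure D1:**
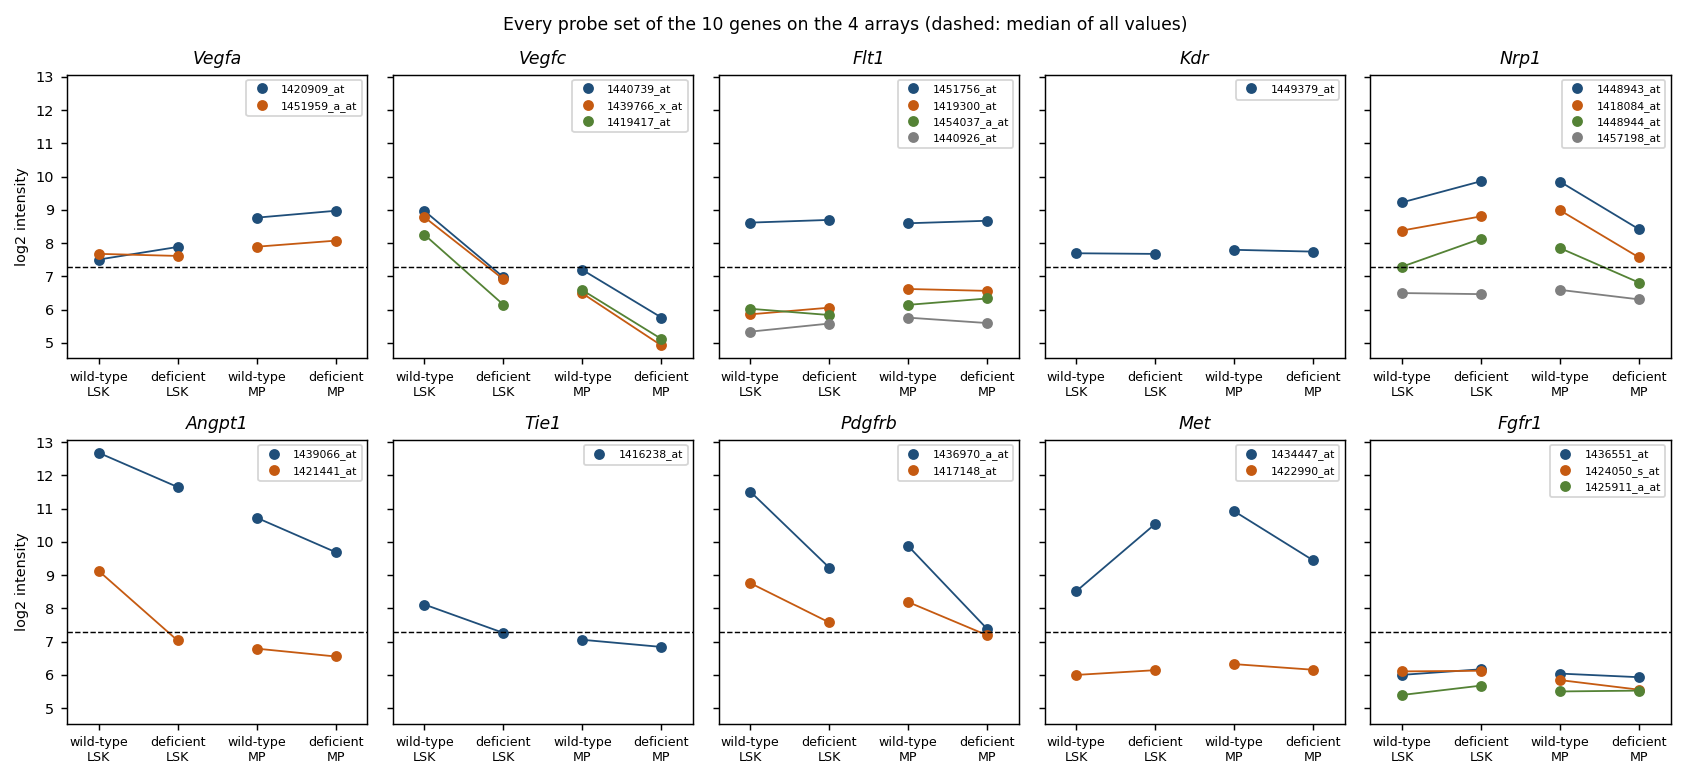
Log2 intensity (vertical axis) of all 24 probe sets of the 10 genes on the 4 arrays, 1 point per array, with lines joining the genotypes of a population and the dashed line at the median of all values (157 on the linear scale). Vegfc, Angpt1, Tie1 and Pdgfrb slope down from wild-type to deficient in both populations, Met and the 3 brighter Nrp1 probe sets slope up in LSK and down in MP, and all Fgfr1 points lie under the line.

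Fbw7-deficient and wild-type cells were compared within each population, the question of the study being the control of stem cell quiescence by Fbw7. In LSK cells 3 members were at least 2-fold lower in the deficient sample, Pdgfrb, Vegfc and Angpt1, and 1, Met, was at least 2-fold higher. In MP cells 5 were at least 2-fold lower, Pdgfrb, Met, Vegfc, Nrp1 and Angpt1, and none was higher. Pdgfrb, Vegfc and Angpt1 were lower in both populations, as 0.449% of all genes were. Over all 12240 genes, 1.95% were lower and 1.79% higher by 2-fold in LSK, and 1.49% were lower and 0.825% higher in MP. The members were chosen with such differences known, so nothing is read from their share. The member nearest to a call without reaching it was Tie1 in both populations (log2 -0.85 in LSK and -0.21 in MP), and the nearest inside was Angpt1 (log2 -1.03 and -1.04). Among the 9 members compared, the median log2 difference was -0.02 in LSK and -1.04 in MP, beside 0.0049 and -0.0024 over all genes. The MP median depended on the processing. It was -0.05 with values under the median of all values raised to it, -0.63 with no level filter and -0.73 with the mean over probe sets. As the members were chosen with such differences known, nothing is read from their median either. In such bulk samples fewer cells of a type and less RNA per cell cannot be told apart.

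**Figure D2:**
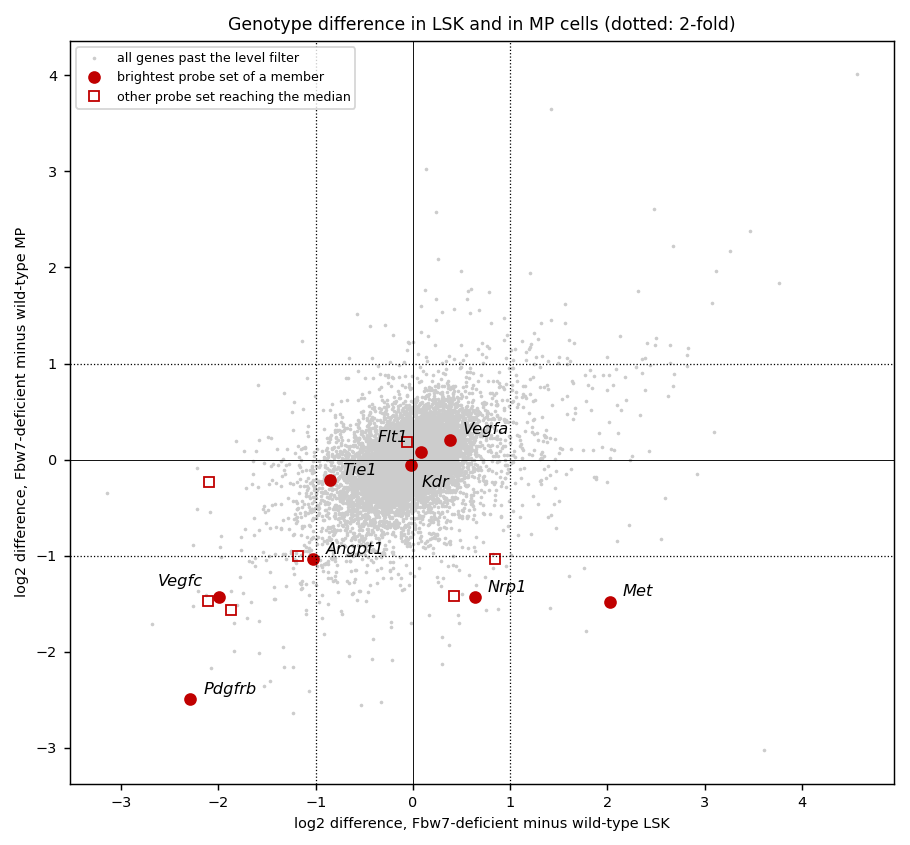
Log2 difference of Fbw7-deficient minus wild-type in LSK (horizontal) and in MP (vertical), with 1 grey point per gene past the level filter, red circles for the brightest probe set of a member and open squares for its other probe sets that reach the median. Dotted lines mark 2-fold; Pdgfrb lies at -2.29 and -2.49, and Met at 2.02 and -1.48.

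Among the ligands, Vegfc was read by 3 probe sets, all highest in wild-type LSK and lowest in deficient MP. The brightest (1440739_at) read 500.3 in wild-type and 126 in deficient LSK, and 146 in wild-type and 54.2 in deficient MP. Wild-type LSK was thus the 1 sample in which Vegfc stood over the median of all values. The other probe sets read 439 and 305 in wild-type LSK and between 30.3 and 120.4 elsewhere. The log2 difference between genotypes ran from -2.11 to -1.87 in LSK over the 3 probe sets and from -1.57 to -1.43 in MP. With values under the median raised to it, the LSK difference of the brightest probe set was 3.19-fold in place of 3.98-fold, and the MP difference had no size, since both samples lay under the median. The MP call therefore rests on values not shown to be above background.

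Angpt1 was lower in both deficient samples on its brighter probe set. This probe set (1439066_at) read 6564 in wild-type and 3213 in deficient LSK, and 1695 in wild-type and 827 in deficient MP, all above the median. The deficient sample was lower by a like factor in both populations, 2.04-fold in LSK and 2.05-fold in MP, close to the 2-fold call. Its other probe set (1421441_at) read 560.2, 131, 111 and 94.0 in the same order. On that probe set the difference was 4.27-fold in LSK, 3.58-fold with values under the median raised to it, while both MP values lay under the median, so the probe sets disagree on the size in LSK. With the mean of both probe sets the MP difference was log2 -0.64, which ends that call.

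Vegfa did not reach 2-fold between genotypes. Its brighter probe set (1420909_at) read 182 in wild-type and 236 in deficient LSK, and 435 in wild-type and 502 in deficient MP. The log2 difference was 0.38 in LSK and 0.21 in MP. The other probe set (1451959_a_at) read 205, 196, 237 and 269, a log2 difference of -0.06 in LSK and 0.18 in MP, so the sign in LSK depended on the probe set. Of the 3 ligands, Vegfa was the one with its highest reading in MP cells.

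Among the receptors, Pdgfrb showed the largest difference of the members in both populations, taking the brightest probe set of each. Its brighter probe set (1436970_a_at) read 2919 in wild-type and 598 in deficient LSK, and 937 in wild-type and 166 in deficient MP. Each deficient sample was lower than its wild-type partner, and deficient LSK lay below wild-type MP. The difference was 4.88-fold in LSK, the 3rd lowest of 12240 genes, and 5.63-fold in MP, the 5th lowest. The other probe set (1417148_at) read 433, 191, 292 and 146 in the same order, a log2 difference of -1.18 in LSK and -0.998 in MP, the latter just short of a call. Both probe sets thus ordered the arrays alike, with a smaller step on the dimmer one.

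Tie1 was read by 1 probe set (1416238_at), at 278 in wild-type and 154 in deficient LSK, and 133 in wild-type and 115 in deficient MP. Only wild-type LSK exceeded the median of all values. The LSK difference was 1.81-fold, or 1.77-fold with values under the median raised to it, and no size can be given in MP, where both values lay under the median.

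Markers of other cells moved with these lower readings. Higher and lower are used of marker lists for the sign of each gene's difference, not for 2-fold. The 9 named stem cell markers were all lower in deficient LSK (median log2 difference -0.68; their summed intensity was 51054 in wild-type and 30229 in deficient LSK) and 8 of 9 were lower in deficient MP (summed 19824 and 9708). The MP sum fell most through Cd34, which read 6491 in wild-type and 1103 in deficient MP. Hlf (478 and 391), Procr (187 and 116) and Mecom (145 and 119) add little to it. Megakaryocyte markers were lower for 6 of 7 in LSK (summed 10759 and 4473) and 7 of 7 in MP (summed 8868 and 5740). Their part in the differences of Pdgfrb, Vegfc, Angpt1 and Tie1 was not tested. Mesenchymal and pericyte markers, of cells in which Pdgfrb is high, ran the other way. The 7 of 12 named that passed the filter were all higher in the deficient sample of both populations. Summed over 12 genes, intensity went from 1859 to 3395 in LSK and from 3170 to 5131 in MP. The largest differences were those of Col1a2, at log2 2.30 in LSK and 0.97 in MP, and Col1a1, at 1.01 and 1.14. The third collagen gene of the list, Col3a1, read 28.4 to 34.1, under the median on all 4 arrays. Sparc was at 0.61 and 0.62, and Dcn at 0.22 and 0.77. Cspg4, Acta2 and Lepr differed little, by log2 0.17 to 0.24 in LSK and 0.04 to 0.05 in MP. Rgs5, Pdgfra, Cxcl12 and Lum were, like Col3a1, under the median on all 4 arrays. Of 13 endothelial markers, 9 passed the filter. Of these, 8 were lower and 1 higher in deficient LSK (median log2 difference -0.22), and 3 were lower and 6 higher in deficient MP (median 0.07). In wild-type LSK Egfl7 read 3302, Eng 1449, Vwf 1423, a gene also of megakaryocytes, and Esam 947. Between the wild-type samples, 6 of the 9 were higher in LSK than in MP and 3 lower. Robo4, Egfl7 and Esam were at log2 1.91, 1.62 and 1.29 there, higher in LSK as the stem cell markers were. The other 4 were under the median on all arrays, among them Cdh5, the endothelial cadherin, at 47.9 to 50.6, and Cldn5, at 123 to 130.1. The summed intensity of the 13 was 8830, 7464, 4567 and 4678 in wild-type LSK, deficient LSK, wild-type MP and deficient MP. The part of these cells in the values of the members was not tested.

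Met, the hepatocyte growth factor receptor, and Nrp1 were the members whose genotype difference had opposite signs in LSK and MP on the brightest probe set, among the 9 that passed the level filter. The brighter probe set of Met (1434447_at) read 366 in wild-type and 1487 in deficient LSK, and 1941 in wild-type and 696 in deficient MP, all above the median. Deficient LSK was 4.07-fold higher than wild-type LSK, and deficient MP was 2.79-fold lower than wild-type MP. The difference of these log2 differences was 3.50. Of the 12240 genes, 7 (0.0572%) reached 2-fold in opposite directions in both populations, Met among them; in 2 of the 7, Rag1 and Jchain, the deficient MP value lay under the median. The other probe set of Met (1422990_at) read between 63.9 and 80.1, under the median on all arrays, so no other probe set bears on the Met values.

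Nrp1 had 3 probe sets that reached the median and 1 that did not. The brightest (1448943_at) read 598 in wild-type and 929.6 in deficient LSK, and 921 in wild-type and 341 in deficient MP. The second (1418084_at) read 333, 447, 507 and 189.8, and the third (1448944_at) 156.6, 280.4, 231 and 112. All 3 were higher in deficient than in wild-type LSK, by 1.34-fold to 1.79-fold, short of a call. All 3 were lower in deficient MP, by log2 values from -1.43 to -1.04, and deficient MP was the lowest sample on each. With values under the median raised to it, the MP difference of the third was 1.47-fold. The fourth (1457198_at) read 79.2 to 96.6.

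Mature myeloid markers moved with Met and Nrp1 in LSK: all 10 were higher in the deficient sample (median log2 difference 1.29; summed intensity 45908 in wild-type and 96957 in deficient LSK). In MP 6 of the 10 were higher and 4 lower (median 0.06, summed 74056 and 75262). The MP differences ran from log2 -1.22 for the monocyte and macrophage receptor gene Csf1r to 0.27 for Cd177. Csf1r was the 1 gene of the 10 at 2-fold there, and the next lowest were Adgre1 at -0.43 and Ccr2 at -0.40. The 4 genes lower in MP, these and Mmp8 (-0.18), thus had opposite signs in the populations, as Met and Nrp1 did. Myeloid progenitor markers were higher for 9 of 9 in LSK (summed 56396 and 107099) and 8 of 9 in MP (summed 161439 and 176057). B and plasma cell markers had opposite signs in the populations as Met did, with 5 of 6 higher in deficient LSK (summed 9431 and 15295) and 6 of 6 lower in deficient MP (summed 11876 and 4180.2). Erythroid markers were higher in deficient cells of both populations for the 4 that passed the filter (summed over 5 genes 2225 to 15747 in LSK and 8894 to 21361 in MP). The lowest of all values on the arrays was 12.7, so no marker could read 0. A marker under the median is therefore not shown to be present or absent. The part of these cells in the values of Met and Nrp1 was not tested.

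The classical VEGF-A receptors differed little between the 4 samples. Kdr (1449379_at) read 207, 204, 223 and 214 in wild-type LSK, deficient LSK, wild-type MP and deficient MP. The brightest probe set of Flt1 (1451756_at) read 392, 415, 387 and 408. The other 3 probe sets of Flt1 read 40.4 to 98.3, under the median on all arrays. The log2 difference between genotypes was -0.02 in LSK and -0.05 in MP for Kdr, and 0.08 in both for the brightest probe set of Flt1. Fgfr1 was under the median on every array with all 3 probe sets, at 42.1 to 71.9, so its RNA was not shown above background in any of the samples.

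The populations were compared within each genotype, MP cells being the study's control for genes enriched in LSK. In wild-type cells Angpt1, Vegfc, Pdgfrb and Tie1 were at least 2-fold higher in LSK than in MP and Met and Vegfa at least 2-fold lower; over all genes 5.05% were higher and 2.4% lower. In Fbw7-deficient cells Angpt1, Pdgfrb, Nrp1, Vegfc and Met were at least 2-fold higher in LSK and Vegfa lower, where 3.86% and 1.63% of all genes were. Vegfc in deficient cells lay under the median on both arrays, so its gap there has no size. These comparisons share arrays with the genotype comparisons and are not independent of them. Angpt1 had log2 differences of 1.95 and 1.96 in the 2 genotypes on its brighter probe set, and of 2.34 and 0.48 on the other, where all samples except wild-type LSK lay under the median. Pdgfrb had log2 differences of 1.64 and 1.84 on its brighter probe set but 0.57 and 0.39 on the other. Vegfa had log2 differences of -1.26 and -1.09, and -0.21 and -0.46 on its other probe set. With the mean over probe sets Vegfa was at -0.74 in wild-type and -0.77 in deficient cells, and with 50 added before log2 at -0.95 in deficient cells, which ends those calls. Met went from -2.41 in wild-type to 1.09 in deficient cells, where the mean over its probe sets gave 0.54 and ends the call, and Nrp1 from -0.62 to 1.44. The gap of Tie1 (log2 1.06) was 0.82 with values under the median raised to it, which ends that call.

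**Figure D3:**
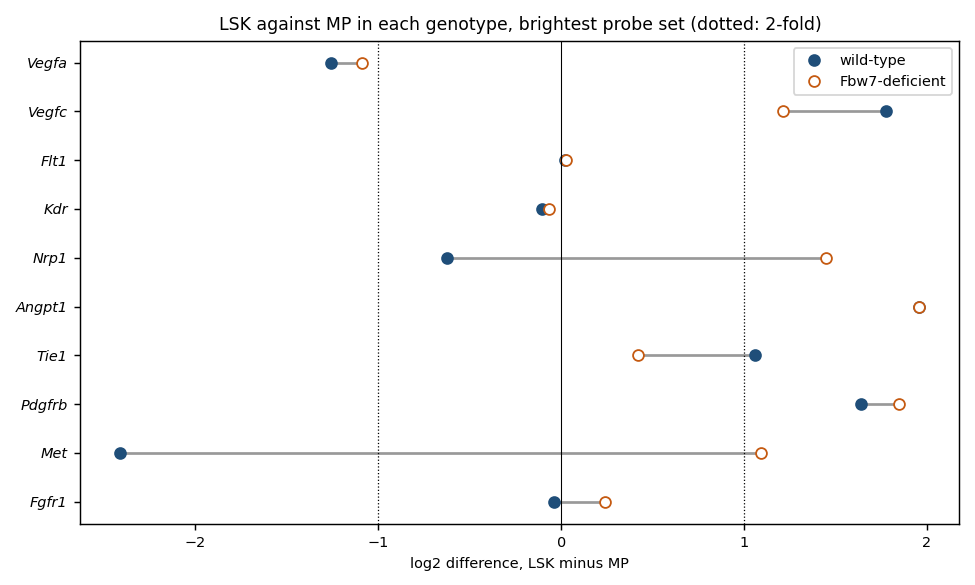
Log2 difference of LSK minus MP (horizontal axis) in wild-type cells (filled) and Fbw7-deficient cells (open) for the brightest probe set of each of the 10 genes, with dotted lines at 2-fold. Met and Nrp1 lie on opposite sides of 0 in the 2 genotypes, and both points of Angpt1 coincide at 1.95 and 1.96; Fgfr1, and Vegfc and Tie1 in deficient cells, rest on values under the median on both arrays.

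The order of the samples was thus not the same for all members. For Angpt1 it ran from wild-type LSK over deficient LSK and wild-type MP to deficient MP. Pdgfrb and Vegfc shared the highest and lowest sample with Angpt1, but wild-type MP exceeded deficient LSK on the brightest probe set of both, for Vegfc with both values under the median. Met and Nrp1 had wild-type MP and deficient LSK as the higher samples; their lowest was wild-type LSK for Met and deficient MP for Nrp1. With no replicate, it is not known which neighbours in these orders differ beyond the spread between samples.

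Genes with the 4-array profile most like that of a member were sought by the Euclidean distance between log2 profiles centred on their mean, over 4 samples, among all genes that passed the filter. Nearest to Vegfc were Bend4 (distance 0.21), Rnf180 (0.25) and Fnbp1l (0.27). Bend4 read 1378 in wild-type and 287 in deficient LSK, and 367 in wild-type and 127 in deficient MP. Pdgfrb had no close neighbour, the nearest being Gbp2 (0.67), an interferon-induced guanylate-binding protein gene, Bend4 (0.71) and Rnf180 (0.74). Nearest to Angpt1 were Frmd4b, Sash1 and Jakmip1 (0.16 for each), and nearest to Tie1 were Sfxn3 (0.074), Exoc6b and Vgll4. Nearest to Nrp1 were Emb (0.17), Ms4a6c (0.22) and Irf8 (0.27), a transcription factor of monocytes and dendritic cells, which read 4955, 8366, 9804 and 3318. Nearest to Met were Clec7a (0.45), the beta-glucan receptor gene, Ly86 (0.46) and Tifab (0.59). Nearest to Vegfa were Oaf (0.066), Hsd17b1 and Tada2b. With 4 points a small distance is easily met, so these are descriptions of the arrays.

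Most related ligands and receptors outside the 10 genes that passed the level filter did not reach 2-fold between genotypes. Of 4 other angiopoietin and TIE genes, 2 passed the filter. Tek, the receptor of angiopoietin 1, read 449.6 in wild-type and 169 in deficient LSK, and 171 in wild-type and 105 in deficient MP, a log2 difference of -1.41 in LSK and -0.70 in MP. It was the 1 gene of the list at 2-fold. Of the other VEGF genes, 4 of 5 passed and none reached 2-fold in either population; the largest log2 differences in LSK were those of the lymphatic VEGF-C receptor gene Flt4 (-0.23), Vegfb (0.18) and the placental growth factor gene Pgf (0.13). Flt4 read 279, 238, 269 and 271 in wild-type LSK, deficient LSK, wild-type MP and deficient MP. Of 5 other PDGF genes only Pdgfa passed (150.2, 149, 136 and 165), and Pdgfb, which encodes a ligand of PDGF receptor beta, stayed under the median at 122 to 148. Of 5 other genes of the HGF system 3 passed and none reached 2-fold: Hgf, the ligand of MET, read 422, 238, 244 and 183 (log2 -0.83 in LSK and -0.41 in MP), the matriptase gene St14 had log2 differences of -0.39 and -0.79, and its inhibitor Spint1 of -0.20 and 0.0044.

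Of 12 other FGF genes 7 passed and none reached 2-fold between genotypes, the largest LSK differences being Fgf13 (log2 0.61), Fgf3 (-0.55) and the co-receptor gene Klb (0.11). Of 10 semaphorin and plexin genes 6 passed, with Sema3d, a secreted guidance factor, at 2-fold. Sema3d read 241 in wild-type LSK and 507 in deficient LSK but 31.6 and 37.6 in the MP samples, so it exceeded the median in the LSK samples only and was higher in the deficient one (log2 1.07). Of 16 adaptors and effectors of receptor kinases 13 were named and passed, with 11 below 0 in LSK and 6 in MP. Gab1, a docking protein of MET and other receptors, was the 1 gene at 2-fold in LSK: it read 1317 and 620 in LSK (log2 -1.09) and 638 and 1148 in MP (log2 0.85). Of 17 transcription factors of hypoxia and of endothelial and blood progenitors 14 passed, 13 of them below 0 in LSK (median log2 difference -0.30) and 11 below 0 in MP (median -0.47). Mef2c (7105, 4416, 2927 and 1407) and Hhex (5600.2, 3898, 3587 and 1756) reached 2-fold in MP, at log2 -1.06 and -1.03. Over all genes 3.74% reached 2-fold either way in LSK and 2.31% in MP. The median of all genes was 0.0049 and -0.0024.

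**Figure D4:**
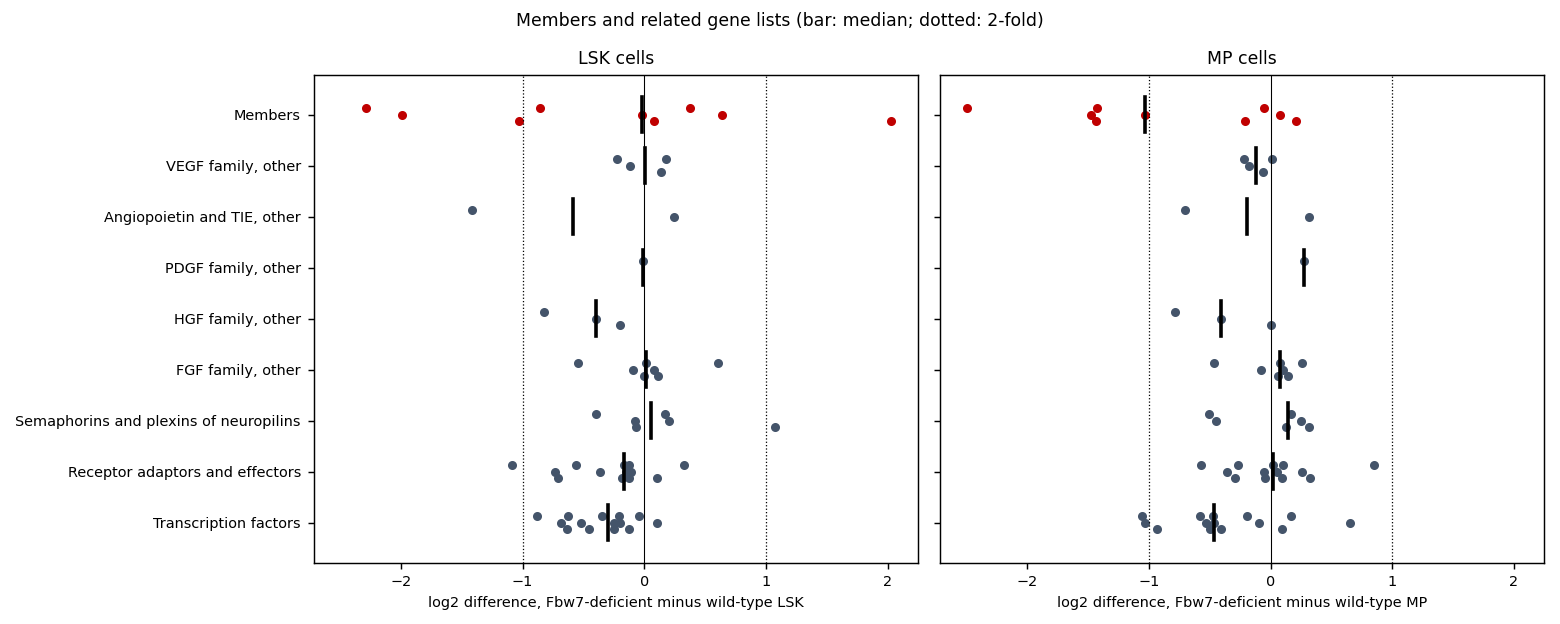
Log2 difference of Fbw7-deficient minus wild-type in LSK (left) and MP (right) for the members (red) and for 8 related gene lists (grey), 1 point per gene past the level filter, with a bar at the median and dotted lines at 2-fold. Transcription factors lie mostly below 0 in both panels (medians -0.30 and -0.47), and few genes outside the members pass a dotted line.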

How the data were processed

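Per the submitters' processing notes, the deposited intensity of each probe set was made with RMA, which corrects background, equalises the arrays and summarises probes; its software, version and settings: not given in the sources used here. Per the labels' protocols, 20 ng of total RNA was amplified in a 2-cycle protocol and labelled with biotin. RMA hides changes shared by most genes and compresses those of dim genes. That the values are linear follows from their range, up to 43564.

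Of 45101 probe sets, 34958 name 1 gene in the platform annotation and 932 name several, which were not used; symbols were updated by gene ID through RefSeq (assembly GRCm38.p6) for 34754. Values were taken to log2. The brightest probe set by mean log2 value stood for its gene, and 12240 genes whose highest value reached the median (157) were compared at 2-fold, with no test. The code was run on simulated arrays with planted differences well past 2-fold and a noise level that was set, not estimated. That run checks the code only and says nothing of how reliable the calls on these arrays are. Members, gene lists, motifs and the naming rule were chosen with earlier results of these data known. The rule names all members with every probe set, list genes past 2-fold in a genotype comparison or else the 3 with the largest LSK difference, the 3 nearest profiles of members ranging over at least 1 log2 unit, and Fbxw7; markers, Bend4, Irf8 and Pdgfb were given values after these were seen. Python 3.11.15, numpy 2.4.6 and pandas 2.3.3 were used, and 8 alternatives were tried.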

Additional observations from a re-analysis of the deposited data

Results flagged for a closer look

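The genotype difference of 2 members had opposite signs in LSK and MP cells, each with 1 sample per group, so the difference between the populations was not tested. For Met the log2 difference of Fbw7-deficient minus wild-type was 2.02 in LSK and -1.48 in MP on the 1 probe set above the median. For Nrp1 it was 0.64 in LSK and -1.43 in MP on the brightest probe set, and 2 more probe sets had the same signs.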

How the results depend on the processing

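LSK and MP cells of a genotype come from the same pooled marrow and so form a pair. With only 1 such pair per genotype, and 1 sample per group, no paired analysis was possible. No array could be left out either, since each comparison rests on 1 array per group. The count of members lower by 2-fold in Fbw7-deficient MP was 5, and 3 under each of 2 alternatives, the mean over a gene's probe sets and 50 added before log2. In wild-type LSK against MP the count higher was 4, and 2 with the level filter at the 75th percentile, and the count lower was 2, and 1 with the mean over probe sets or with that filter. In Fbw7-deficient LSK against MP the count lower was 1, and 0 with the mean over probe sets, with 50 added or with that filter. That filter left 4 members to compare. The counts in LSK between genotypes, and the other counts under the other alternatives, stayed within 1.5 times. Of 264 single-gene differences recomputed, 248 stayed on their side of 2-fold, 16 no longer reached it and 0 turned from a call to the opposite sign. Part of the 264 could not move, so the 248 do not measure robustness. A changed level filter alters only which genes enter, and leaving out probe sets by their ending changed Pdgfrb alone. The mean over probe sets leaves Kdr and Tie1, with 1 probe set each, as they were. Pdgfrb in MP was at log2 -0.998, just short of 2-fold, without probe sets ending in _x_at, _s_at or _a_at, and Met in MP at -0.82 with the mean over its probe sets, 1 of which lay under the median. The median of all genes moved by less than 0.1 under both scalings. Signal over background limits Vegfc, Tie1, Fgfr1 and the dimmer probe sets, and the number of arrays limits the precision of all values.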

Other observations

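Besides Met, 6 genes reached 2-fold in opposite directions in the 2 populations. The B cell receptor adaptor gene Blnk read 319 in wild-type and 969 in deficient LSK, and 404 in wild-type and 174 in deficient MP. Rag1, the recombinase of lymphocyte receptor genes, read 221, 749, 162 and 74.5 in the same order. Ly86, which encodes a partner of the receptor RP105, read 823, 2188, 3245 and 1112. The immunoglobulin genes Igha (221, 2696, 4238 and 523) and Jchain (211, 725, 435 and 126) had the same signs. Tgm2, the tissue transglutaminase gene, had the reverse ones, at 2583, 1169, 628 and 1479.9. The deficient MP values of Rag1 and Jchain lay under the median of 157, and the wild-type MP value of Rag1 (162) was close to it, so with values under the median raised to it Rag1 would not reach 2-fold in MP. These genes were named after their values were seen.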
